A study of Mus musculus with 69 samples.

Results

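Cells of the renal medulla live in a hypertonic surrounding, and 7 genes of their tonicity response were followed across 69 libraries of mouse kidney RNA. The members were Nfat5, Slc5a3, Slc6a12, Slc6a6, Akr1b3, Hspa4l and Gdpd5, chosen by gene name among 24411 genes in the count table, of which 21175 reached the minimum of 2 counts over all libraries and were tested. All 7 members reached this minimum. Slc6a12 was on the list because it fell in volume depletion in these same mice, so its levels in volume depletion are given as a description with no test in both sexes. Its other comparisons that include control pulldowns use libraries of the fall that chose it. These are the comparisons of ischemia with control, of pulldown with total RNA, between the drivers and between the sexes. Its p-values there are not independent of that choice. The other members and the gene lists were also chosen with earlier results of these data known. The part of this in their p-values was not tested.

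The kidney RNA came from mice that carried Uprt (uracil phosphoribosyltransferase) in the Rosa26 locus behind a stop cassette, which was removed by Hoxb7Cre in the collecting duct or by Atp6v1b1Cre in intercalated and double-positive cells. Cells with Uprt build injected 4-thiouracil (4-TU, 430 mg/kg, given 4 hours before collection) into new RNA, which was biotinylated and pulled down. The 48 pulldown libraries came from untreated control mice, from mice 24 hours after a 10 minute clamp of the renal vessels (iAKI, ischemia), or from mice kept 72 hours without water and food (vAKI, volume depletion), and 21 further libraries held total kidney RNA of control mice. Every group therefore carried Uprt, a Cre driver and 4-TU, and water and food were withdrawn together, so that these cannot be told apart. The ischemia protocol also included ketamine and xylazine anesthesia, laparotomy, warming and saline. The labels name no sham group, so these and the clamp cannot be told apart either. With Hoxb7Cre, mice of 5.5 months gave 4 male and 4 female control, 4 male and 3 female iAKI, and 3 male and 4 female vAKI pulldowns, and 2 female controls of 3 months were added. With Atp6v1b1Cre, mice of 5.5 months gave 4 male and 4 female control, 3 male and 3 female iAKI, and 4 male and 3 female vAKI pulldowns, and 3 male controls of 3 months were added. The labels give the libraries as separate samples, and the p-values measure the spread between them. Control pulldown and total libraries are equal in number for each driver, sex and age, and may come from the same mice, which the comparison of the 42 control libraries as separate samples does not take into account.

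When the fluid around a cell becomes hypertonic, the transcription factor NFAT5 (also called TonEBP) activates genes that raise the content of small organic osmolytes, which balance the osmotic pressure without disturbing proteins. SLC5A3 (SMIT1) takes up myo-inositol, SLC6A12 (BGT1) betaine and SLC6A6 (TauT) taurine, AKR1B3 (aldose reductase) makes sorbitol from glucose, and GDPD5 breaks down glycerophosphocholine, which is spared when GDPD5 is low. HSPA4L (also called OSP94) is a chaperone of the HSP110 family that hypertonic stress induces, and the thirsting kidney, which concentrates the urine, is the classical setting of this program.

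NFAT5 binds a short element (TonE, the tonicity enhancer) that was first described upstream of genes of this kind. The 250 bases before a RefSeq start site (GRCm38.p6) are shown for Slc6a12 and Hspa4l, the members that moved most in volume depletion. For Slc6a12 they span chr6:121342324-121342573, plus strand, and capitals mark the 11 bases that match the TonE consensus. For Hspa4l they span chr3:40745363-40745612, plus strand, and hold no match.
Slc6a12: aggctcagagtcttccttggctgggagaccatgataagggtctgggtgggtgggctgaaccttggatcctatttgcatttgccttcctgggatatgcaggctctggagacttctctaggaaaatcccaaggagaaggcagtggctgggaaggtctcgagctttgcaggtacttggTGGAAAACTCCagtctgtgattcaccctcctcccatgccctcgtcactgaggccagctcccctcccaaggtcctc
Hspa4l: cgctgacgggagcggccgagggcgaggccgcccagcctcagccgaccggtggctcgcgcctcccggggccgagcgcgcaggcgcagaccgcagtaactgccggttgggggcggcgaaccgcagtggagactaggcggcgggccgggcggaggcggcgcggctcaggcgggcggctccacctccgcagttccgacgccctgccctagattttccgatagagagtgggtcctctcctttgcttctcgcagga
The match in Slc6a12, TGGAAAACTCC, lies at chr6:121342499-121342509 and ends 64 bases before that start site. RefSeq gave 8 start sites for 4 of the 7 members (5 for Slc6a12 and 1 each for Nfat5, Slc5a3 and Hspa4l), and in the windows of the other 7 neither the consensus nor its core TGGAAA was found on either strand. Among 32851 promoter windows of the same length, 6104 (18.6%) held the core on either strand and 1416 (4.31%) held the consensus, of which the core is a part. These shares are per window, whereas 5 windows were searched for Slc6a12, and the 1 shown is the one with the match. The Slc6a12 window that ends at chr6:121343075, just before the gene start given below, holds none. A match is a description of the letters and not of binding, and no match says only that these letters are not in this window. Slc6a6, Akr1b3 and Gdpd5 had no entry.

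The smallest library held 12618100 counts, the median library 20868400 and the largest 30305500, and levels are given as CPM, the usual rate of counts of a gene among all counts of its library, after TMM scaling of all 69 libraries. The Hoxb7Cre pulldowns of control mice carried more RNA of 5 of 6 principal cell markers than total RNA and less of Hsd11b2, and in both pulldowns all 4 proximal tubule markers and all 3 podocyte markers were lower than in total RNA. Of 3 thick limb markers, 3 were lower in Hoxb7Cre and 2 in Atp6v1b1Cre pulldowns, and 3 of 5 intercalated cell markers were higher in both. No marker of another segment was at 0 in any pulldown, so the pulldowns were enriched and not pure, and fewer cells of a type and less RNA per cell cannot be told apart in such bulk samples. Library numbers fell into 3 runs (1 to 40, 65 to 85, and 98 upward), and all iAKI and vAKI libraries of Hoxb7Cre mice were in the first run. The labels do not say what a run is. Replicates of a group differed by more than sampling noise in each of 89 pairs.

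The members lie at these positions in the GENCODE M21 annotation of GRCm38, where exon length is the union of all exons. Nfat5 spans chr8:107293470-107379517 (plus strand, 18378 bases of exon), Slc5a3 spans chr16:92058322-92087473 (plus, 10913), and Slc6a12 spans chr6:121343076-121365775 (plus, 3052). Slc6a6 spans chr6:91684053-91759066 (plus, 8457), Akr1b3 spans chr6:34302434-34317478 (minus, 8384), Hspa4l spans chr3:40744495-40796103 (plus, 11792), and Gdpd5 spans chr7:99381414-99461877 (plus, 6739). Slc5a3 overlaps Mrps6 and Gm49711 on its own strand, and Slc6a6 overlaps Gm45828 on its own strand and 4930517G19Rik and Gm44981 on the other, so reads there are uncertain.

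Akr1b3 could not be measured. Its count was 0 in 54 of 69 libraries, was 3 at most, and summed to 20 over all libraries, while 3 counts correspond to 0.099 to 0.238 CPM. Of the 50-base words of its protein-coding transcripts, 55.2% also occur in 4 other genes, all of them pseudogenes (51.8% in Gm6644 alone), against 0% to 1.01% for the other members. Reads that align to several places were not counted by the authors' tool at its default setting, and its part in the low count was not tested. Akr1b3 is left out of all counts that follow, which cover 6 members.

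In control mice Slc5a3 was the highest member in the pulldowns and Gdpd5 the lowest. The authors state that the pulldown may hold too much uracil-rich RNA, which might affect comparisons between genes. They also state that labeling may reflect RNA turnover rather than level. The part of either in these levels and in the differences from total RNA was not tested. Per kilobase of exon, Slc5a3 stood at 244.4 ± 60.5 CPM in Hoxb7Cre pulldowns (SD, n = 10), 200.3 ± 39.2 in Atp6v1b1Cre pulldowns (n = 11) and 54.9 ± 13.8 in total RNA (n = 21). Slc6a6 followed with 111 ± 23.6, 123 ± 38.4 and 86.3 ± 15.9 CPM per kb in the same order. Nfat5 stood at 45.1 ± 6.68, 39.8 ± 5.39 and 16.0 ± 2.38 CPM per kb. The ranges of Slc5a3 and Slc6a6 overlapped in each pool, whereas every library of Slc6a6 lay above every library of Nfat5. Slc6a12 stood at 10.1 ± 6.09, 4.26 ± 2.22 and 4.42 ± 1.89 CPM per kb, next to Hspa4l at 6.57 ± 1.32, 4.78 ± 0.798 and 5.07 ± 0.583, and the ranges of these 2 genes overlapped in each pool. Gdpd5 was the lowest measured member in each pool, at 0.808 ± 0.102, 0.891 ± 0.121 and 1.12 ± 0.276 CPM per kb.

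**Figure D1:**
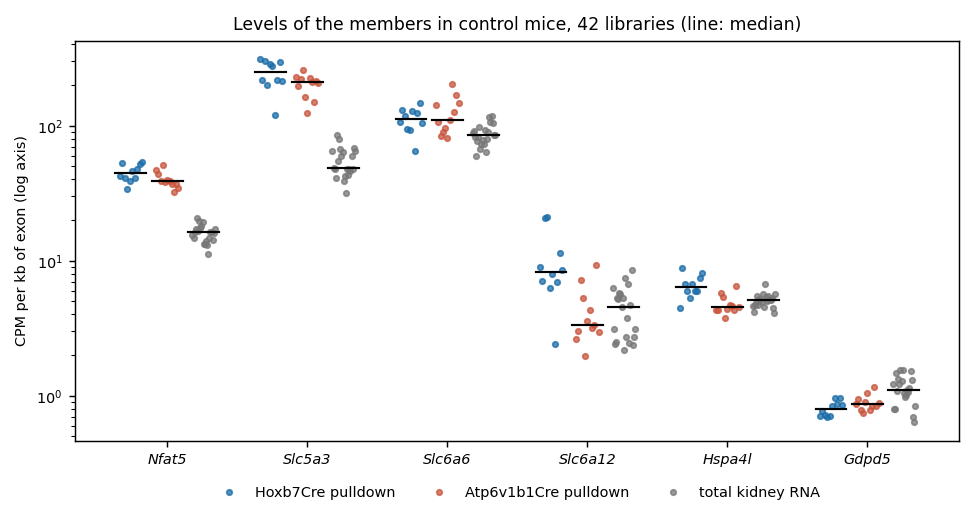
Level of the 6 measured members in control mice, in CPM per kb of exon on a log axis, with 1 point per library (10 Hoxb7Cre pulldowns, 11 Atp6v1b1Cre pulldowns, 21 total RNA) and a line at the median. Nfat5 and Slc5a3 lie above total RNA in both pulldowns without overlap, whereas Gdpd5 lies lower in the pulldowns.

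All 6 measured members differed between the Hoxb7Cre pulldown and total RNA, 5 higher and 1 lower, where 66.6% of all tested genes passed the same test (edgeR quasi-likelihood, adjusted p under 0.05), so the count is to be read against a background in which most genes differ. Slc5a3 was 4.56-fold higher (log2 fold change 2.19 ± 0.12 (SE), adjusted p = 1.96e-20) and Nfat5 2.85-fold higher (1.51 ± 0.07, 8.44e-24). Slc6a12 was 2.42-fold higher (1.27 ± 0.24, 7.3e-06), Slc6a6 rose by 0.41 ± 0.12 (0.00288) and Hspa4l by 0.40 ± 0.08 (2.03e-05) on the log2 scale. The Slc6a12 test shares control libraries with the fall that chose this gene. Gdpd5, the enzyme of glycerophosphocholine breakdown, was lower by a log2 difference of -0.46 ± 0.10 (6.07e-05). In Atp6v1b1Cre pulldowns 4 of 6 passed, 3 higher (Slc5a3 by 1.94, Nfat5 by 1.40, Slc6a6 by 0.56) and Gdpd5 lower (-0.22, adjusted p = 0.0364), beside 63.8% of all genes. Neither Slc6a12 (0.00 ± 0.24) nor Hspa4l (-0.03 ± 0.08) passed there. In females alone the Hoxb7Cre difference of Slc6a12 was 0.54 and did not pass (adjusted p = 0.0717, range over alternatives 2.33e-07 to 0.0717). In males alone those of Slc6a6 (0.34, 0.0861) and Gdpd5 (-0.29, 0.105) did not pass, nor did the Atp6v1b1Cre difference of Gdpd5 (-0.01, 0.961), and these are the highest adjusted p over the alternatives, with lowest values of 0.000926, 5.72e-06 and 0.00111.

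Compared directly, 2 of 6 members were lower in the Atp6v1b1Cre than in the Hoxb7Cre pulldown of control mice, beside 9.93% of all genes in either direction. Slc6a12 ranged from 5.96 to 28.5 CPM (median 10.3) with Atp6v1b1Cre and from 7.36 to 64.5 CPM (median 25.1) with Hoxb7Cre, so that the ranges overlapped. Its log2 difference was -1.27 ± 0.28 (adjusted p = 0.00109). This test, too, shares control libraries with the fall that chose Slc6a12. Hspa4l ranged from 44.7 to 77.02 CPM (median 53.9) and from 52.9 to 104.9 CPM (median 74.9), with a log2 difference of -0.43 ± 0.09 (0.000695). The Slc6a12 difference stood at -2.18 in males alone and at -0.27 in females alone (adjusted p = 0.722), and neither gene passed in females alone (Hspa4l -0.32, 0.261), while over all alternatives the adjusted p of Slc6a12 and of Hspa4l reached these values at most.

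In Hoxb7Cre males Hspa4l and Slc5a3 fell and Gdpd5 rose after volume depletion, and the level of Slc6a12 was lower. Slc6a12, the betaine transporter, stood at 62.8, 64.5, 19.1 and 24.2 CPM in the 4 controls and at 1.41, 2.06 and 2.06 CPM in the 3 vAKI libraries. Every vAKI library lay below every control, and also below all 4 iAKI libraries of the same driver (14.0, 11.5, 19.2 and 19.4 CPM). The fitted level was 22.8-fold lower than in controls (log2 fold change -4.51 ± 0.60), and a fall in volume depletion is what put Slc6a12 on the list. The higher pair of controls, replicates 2 and 3, had library numbers from 1 to 40, and the lower pair, replicates 4 and 5, from 65 to 85.

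**Figure D2:**
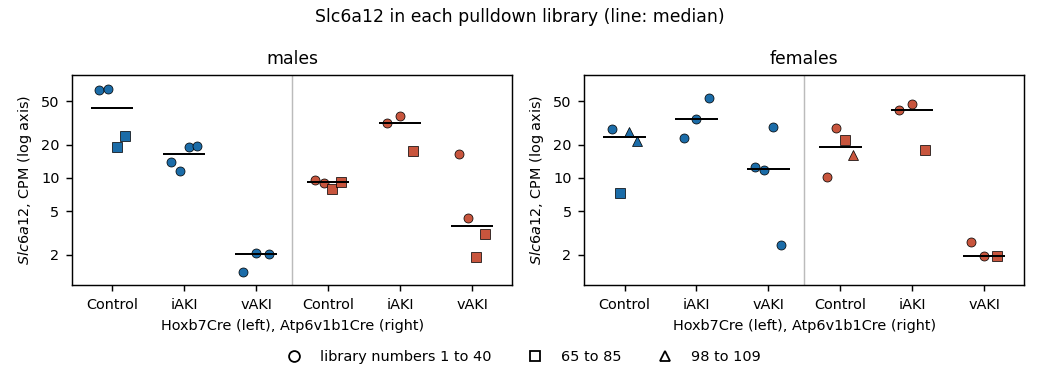
Slc6a12 in CPM (log axis) in each pulldown of a 5.5-month mouse (43 libraries), by driver, treatment and sex, with a line at the median and the symbol giving the run of library numbers. In male Hoxb7Cre mice the 3 vAKI libraries lie at 1.41 to 2.06 CPM, below the controls at 19.1 to 64.5, and in female Atp6v1b1Cre mice the 3 vAKI libraries lie at 1.95 to 2.62, below the controls at 10.3 to 28.5.

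Of the 5 tested members, 3 passed in Hoxb7Cre males with vAKI, 2 lower and 1 higher, where 35.5% of all genes passed. The chaperone gene Hspa4l stood at 79.1, 70.2, 62.8 and 79.7 CPM in controls and at 27.2, 28.005 and 24.8 CPM in vAKI. The groups did not overlap, and Hspa4l fell 2.73-fold (log2 fold change -1.45 ± 0.16, adjusted p = 9.23e-07), a call that no alternative ended. Slc5a3, the myo-inositol transporter, stood at 3301, 2195, 3104 and 3014 CPM in controls and at 2358, 1877 and 1398 CPM in vAKI. The groups overlapped in 1 library each, and Slc5a3 fell by 0.62 ± 0.19 on the log2 scale (0.0132). Without vAKI replicate 7 its difference was -0.45 (adjusted p = 0.103), with both sexes in the fit it was 0.03, and over all alternatives the adjusted p ran from 0.00507 to 0.961.

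Gdpd5 moved the other way, from 4.85, 4.70, 4.79 and 5.62 CPM in controls to 6.60, 9.37 and 6.50 CPM in vAKI without overlap. It rose by 0.59 ± 0.20 on the log2 scale (adjusted p = 0.0227), which did not pass without control replicate 3 (0.0544) or without vAKI replicate 6 (difference 0.40, 0.182) or with both sexes in the fit (0.34, 0.148). Its adjusted p ran from 0.00474 to 0.182 over all alternatives. Nfat5 itself stood at 753, 623, 718 and 855 CPM in controls and at 679, 536 and 548 CPM in vAKI, a log2 difference of -0.32 ± 0.14 that did not pass (0.0835). It passed without vAKI replicate 4 (-0.44, 0.0382) and without control replicate 3 (-0.40, 0.0444), and its adjusted p ran from 0.0382 to 0.268 over all alternatives. Slc6a6, the taurine transporter, did not pass either (-0.19 ± 0.23). The median log2 fold change of the 5 tested members was -0.32, beside 0.00 over all genes.

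Markers of several cell types moved in the same libraries. All 6 principal cell markers were lower in Hoxb7Cre males with vAKI (Aqp2, the vasopressin-regulated water channel, by -1.47 ± 0.15), and their summed level was 1103 to 1197 CPM in vAKI against 2694 to 3499 in controls. None of the 6 was at 0. In iAKI of the same driver the principal cell sum was 993 to 1231 CPM, and Hspa4l was at 55.5, 74.1, 72.3 and 77.5 CPM. The thick limb sum in these iAKI libraries was 1780 to 2015 CPM, with 0 of 3 markers lower. Their intercalated cell sum was 563 to 605 CPM, with 1 of 5 markers lower. The 2 treatments thus differed in other markers too. Of 5 intercalated cell markers 4 were lower in vAKI (sum 377 to 608 CPM against 540 to 911 in controls), and so were 2 of 3 thick limb markers (772 to 857 against 1335 to 2328) and 3 of 5 adipocyte markers (91.8 to 110 against 94.3 to 182). Of 3 macrophage markers 2 were lower and 1 was higher. No proximal tubule, podocyte or endothelial marker passed. The part of all these markers in the levels of the members was not tested.

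In Atp6v1b1Cre males with vAKI 1 of 5 tested members passed, beside 14.6% of all genes. Hspa4l stood at 54.4, 53.9, 50.5 and 50.7 CPM in controls and at 38.1, 42.7, 27.8 and 28.1 CPM in vAKI. The groups did not overlap, and Hspa4l fell by 0.60 ± 0.14 on the log2 scale (adjusted p = 0.00828). With only the males numbered 1 to 40, 15 libraries over both drivers, the difference was -0.43 (0.109), and over all alternatives the adjusted p ran from 0.00104 to 0.109. Slc6a12 stood at 9.67, 9.05, 8.01 and 9.28 CPM in controls and at 16.4, 4.31, 1.92 and 3.07 CPM in vAKI, with replicate 1 above every control and the other 3 below every control. The fitted difference was -0.44 ± 0.46 with all 4 libraries, -1.49 without replicate 1 and 0.13 with libraries 1 to 40 only. The principal cell sum was 754 to 780 CPM in controls and 661 to 855 in vAKI. Of 5 intercalated cell markers, the cells this driver is meant to label, 3 were lower, with a sum of 661 to 919 CPM in controls and 410 to 582 in vAKI and no overlap. The adipocyte sum was 90.6 to 182 CPM in controls and 71.8 to 78.5 in vAKI, with 1 of 5 markers lower. The part of either in the level of Hspa4l was not tested.

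The response to vAKI differed between the drivers for Hspa4l, 1 of 5 tested members, beside 4.2% of all genes. The Atp6v1b1Cre response of Hspa4l was higher than the Hoxb7Cre response by 0.85 ± 0.21 on the log2 scale (adjusted p = 0.0239). This did not pass without Atp6v1b1Cre vAKI replicate 2 (0.0538) or Hoxb7Cre vAKI replicate 7 (0.0809), and was -0.0066 with both sexes in the fit, where its adjusted p was 1, the highest over all alternatives (lowest 0.00199). For Slc6a12 the same difference of responses was 4.07 ± 0.73, as a description.

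**Figure D3:**
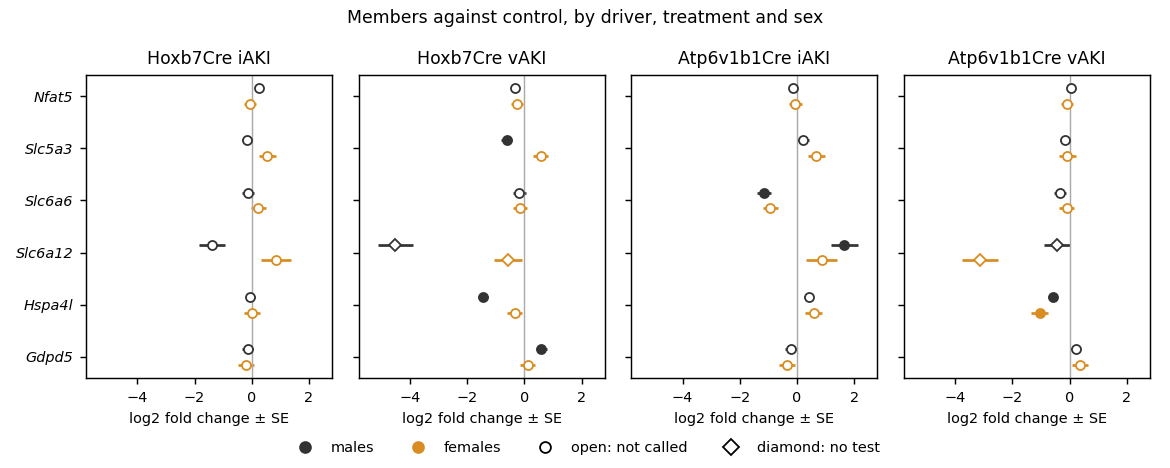
Log2 fold change against control ± SE of the 6 measured members for each driver and treatment, in males (dark) and females (orange), where filled points passed the test at an adjusted p under 0.05 and diamonds mark Slc6a12 in vAKI, which was not tested. Slc6a12 lies at -4.51 in Hoxb7Cre males and -3.14 in Atp6v1b1Cre females with vAKI, and Nfat5 lies within 0.32 of 0 in all panels.

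Ischemia in Hoxb7Cre males gave no called member (edgeR quasi-likelihood, 0 of 6, with 1 at an unadjusted p under 0.05 and 0 by DESeq2), beside 6.13% of all genes. That gene was Slc6a12, with a log2 difference of -1.39 ± 0.45 and an adjusted p of 0.0668. Its 4 iAKI libraries (14.0, 11.5, 19.2 and 19.4 CPM) overlapped the lower pair of controls. The difference was -1.78 (adjusted p = 0.00114) with the run of library numbers in the fit, -1.99 (0.000835) with libraries 1 to 40 only, and -1.41 (0.0313) with only these 2 groups, and over all alternatives the adjusted p ran from 0.000835 to 0.65. Libraries 1 to 40 hold only the higher pair of these controls, at 62.8 and 64.5 CPM. All these Slc6a12 tests use control libraries of the fall that chose this gene. Their p-values are not independent of that choice. With the run in the fit Nfat5 also passed (0.36, 0.0388, range over alternatives 0.0388 to 0.75). The principal cell sum was lower in these iAKI libraries, as given above, and its part was not tested.

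Ischemia in Atp6v1b1Cre males called 2 of 6 members, 1 in each direction, beside 8.51% of all genes. Slc6a6, the taurine transporter, stood at 1710, 1237, 1200 and 901 CPM in controls and at 604, 501 and 607 CPM in iAKI. The groups did not overlap, and Slc6a6 fell 2.22-fold (log2 fold change -1.15 ± 0.24, adjusted p = 0.00501). Leaving out any library kept the call, with an adjusted p of 0.00415 to 0.0286, and over all alternatives the adjusted p ran from 5.11e-05 to 0.0724. Slc6a12 stood at 9.67, 9.05, 8.01 and 9.28 CPM in controls and at 31.9, 36.3 and 17.4 CPM in iAKI, again without overlap. It rose 3.14-fold (1.65 ± 0.48, 0.0342). This Slc6a12 test, too, is not independent of the choice of the gene by its fall against control libraries. Leaving out iAKI replicate 1 or 4 or any of the 4 controls ended the call, with an adjusted p of 0.0607 to 0.119, as did both sexes in the fit (1.22, 0.092), and the range over all alternatives was 0.00271 to 0.4661.

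Hspa4l, at 85.2, 67.2 and 58.0 CPM in the iAKI libraries, lay above all 4 controls, but its log2 difference of 0.41 ± 0.15 did not pass (adjusted p = 0.0985). It passed with the 3 male controls of 3 months in the fit (0.46, 0.0258) and without iAKI replicate 5 (0.55, 0.0374), and its adjusted p ran from 0.0258 to 0.785 over all alternatives. In the same libraries the proximal tubule marker sum was 599 to 882 CPM against 1503 to 2961 in controls. Of 4 proximal tubule markers 1 was called lower, and Slc34a1, the proximal phosphate transporter, fell by 2.43 on the log2 scale. The adipocyte marker sum was 127 to 293 CPM against 90.6 to 182, with 2 of 5 markers higher. The thick limb marker sum was 1835 to 3172 CPM against 978 to 1990, with 1 of 3 markers higher. The part of these markers in the levels of Slc6a6 and Slc6a12 was not tested.

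The response to iAKI differed between the drivers for 2 of 6 members, beside 7.79% of all genes. The Slc6a12 response was higher with Atp6v1b1Cre than with Hoxb7Cre by 3.04 ± 0.66 on the log2 scale (adjusted p = 0.00855), and leaving out any library kept it between 2.78 and 3.35 with an adjusted p of at most 0.0285. It did not pass with both sexes in the fit (1.70, 0.206), and its adjusted p ran from 0.000245 to 0.282 over all alternatives. This contrast also uses control libraries of the fall that chose Slc6a12. The Slc6a6 response was lower by -1.02 ± 0.31 (0.0475), and 12 of the 15 fits without 1 library ended this call, with adjusted p from 0.0198 to 0.13, against 0.00938 to 0.151 over all alternatives.

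**Figure D4:**
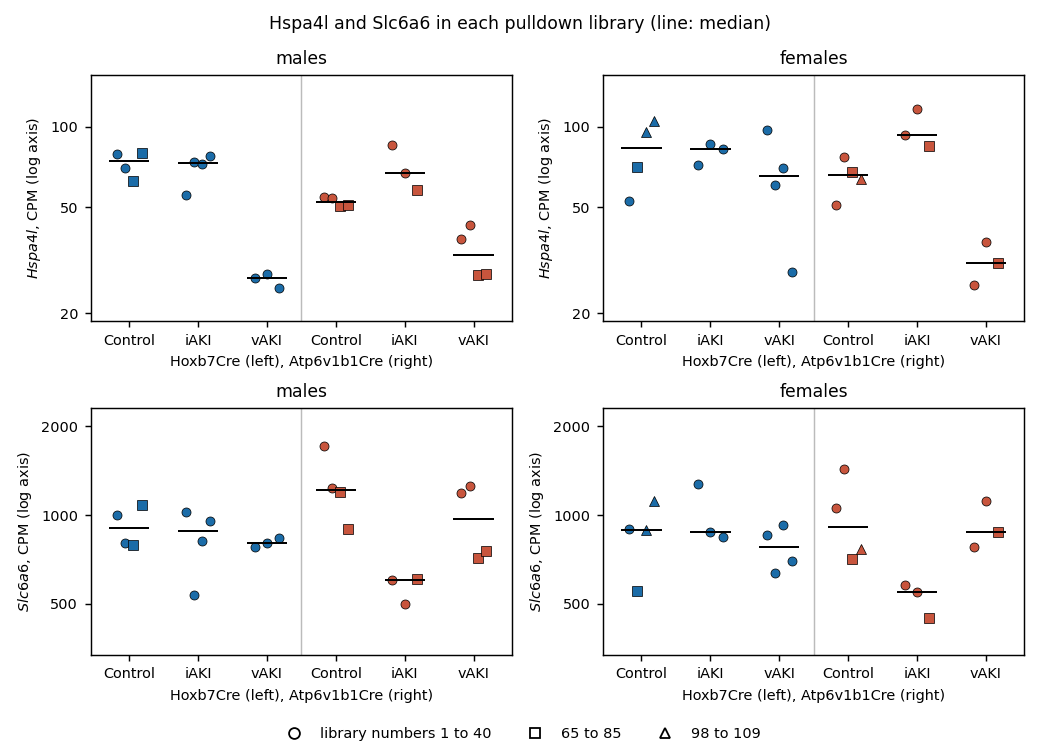
Hspa4l (top) and Slc6a6 (bottom) in CPM (log axes) in each pulldown of a 5.5-month mouse (43 libraries), by driver, treatment and sex, with a line at the median and the symbol giving the run of library numbers. Hspa4l lies at 24.8 to 28.005 CPM in the male Hoxb7Cre vAKI libraries against 62.8 to 79.7 in controls, and Slc6a6 at 501 to 607 CPM in the male Atp6v1b1Cre iAKI libraries against 901 to 1710 in controls.

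Set against each other in the same males, volume depletion and ischemia separated 3 of 5 tested members with Hoxb7Cre, beside 33.3% of all genes. Hspa4l was lower in vAKI than in iAKI by -1.40 ± 0.16 (adjusted p = 1.53e-06). Nfat5 stood at 679, 536 and 548 CPM in vAKI and at 873, 831, 873 and 894 CPM in iAKI, without overlap, and was lower by -0.57 ± 0.14 (0.0036), a call that ended where a log2 fold change of at least 1 was required and in no other alternative. Gdpd5 was higher by 0.74 ± 0.20 (0.006), which did not pass without vAKI replicate 6 (0.0677, the highest over all alternatives, with a lowest of 0.000477). With Atp6v1b1Cre 2 of 5 passed, beside 29.3% of all genes. Hspa4l was lower in vAKI by -1.01 ± 0.15 (5.78e-05), and Slc6a6 was higher by 0.80 ± 0.23 (0.0117), which did not pass without iAKI replicate 4 (0.0672, the highest over all alternatives, with a lowest of 0.000313). Slc6a12 was lower in vAKI than in iAKI by -3.12 ± 0.57 with Hoxb7Cre and by -2.09 ± 0.49 with Atp6v1b1Cre, as a description. With each driver 3 of 6 principal cell markers were lower and 1 was higher. With Atp6v1b1Cre 3 of 4 proximal tubule markers were higher (list median 1.68). There 5 of 5 adipocyte, 4 of 5 intercalated cell and 2 of 3 thick limb markers were lower. The part of these markers in the levels of the members was not tested here either.

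In Atp6v1b1Cre females with vAKI 1 of 5 tested members passed, beside 18% of all genes. Slc6a12 stood at 10.3, 28.5, 22.1 and 16.2 CPM in controls and at 2.62, 1.96 and 1.95 CPM in vAKI. The groups did not overlap, and the fitted level was 8.8-fold lower (log2 fold change -3.14 ± 0.63), as a description. Hspa4l stood at 50.8, 77.02, 67.9 and 63.9 CPM in controls and at 25.6, 37.1 and 30.8 CPM in vAKI, also without overlap. It fell by 1.05 ± 0.29 on the log2 scale (0.0192), and did not pass without vAKI replicate 3 (0.0973), vAKI replicate 5 (0.0539) or control replicate 8 (0.0535), with a range of 0.00471 to 0.0973 over all alternatives. The principal cell sum was 695 to 983 CPM in controls and 575 to 1025 in vAKI, with 2 of 6 markers lower. The intercalated cell sum was 800 to 1206 in controls and 418 to 617 in vAKI, with 2 of 5 markers lower. The part of either in the levels of the members was not tested.

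In Hoxb7Cre females with vAKI no member passed (edgeR quasi-likelihood, 0 of 5 tested, 0 at an unadjusted p under 0.05 and 0 by DESeq2), beside 0.109% of all genes. Slc6a12 stood at 27.6, 7.36, 25.9 and 21.7 CPM in controls and at 12.5, 11.8, 29.1 and 2.47 CPM in vAKI (-0.57 ± 0.50, as a description). Hspa4l stood at 52.9, 70.7, 95.7 and 104.9 CPM in controls and at 97.6, 60.7, 70.04 and 28.5 CPM in vAKI (-0.34 ± 0.26). The lowest library of both genes was vAKI replicate 5, which also held the highest Gdpd5 of its group, 9.80 CPM against 3.85 to 5.22 in the other 3. Slc5a3 stood at 3413, 1306, 2335 and 2402 CPM in controls and at 5282, 2287, 3013 and 3414 CPM in vAKI (0.56 ± 0.27, adjusted p = 0.642).

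Ischemia called no member in females of either driver (edgeR quasi-likelihood, 0 of 6 each). With Hoxb7Cre 3.14% of all genes passed, and 0 members were at an unadjusted p under 0.05 or called by DESeq2. With Atp6v1b1Cre 2.66% of all genes passed, 2 members were at an unadjusted p under 0.05, and DESeq2 called 1. That was Slc6a6, at 1060, 1432, 712 and 766 CPM in controls and at 578, 548 and 448 CPM in iAKI. The groups did not overlap, as in males, and the log2 difference was -0.94 ± 0.26 (adjusted p = 0.0564, with 0.00739 to 0.172 over the alternatives). Slc6a12 stood at 41.2, 46.9 and 18.0 CPM in these iAKI libraries (0.86 ± 0.53, 0.381).

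The difference between the sexes was tested as female minus male response. For vAKI with Hoxb7Cre 2 of 5 members passed, beside 16% of all genes. The Slc5a3 response was higher in females by 1.18 ± 0.35 (adjusted p = 0.0192) and the Hspa4l response by 1.098 ± 0.32 (0.0203). Both calls were lost without female vAKI replicate 1 (0.0743 and 0.0822) or male vAKI replicate 7 (0.0728 and 0.056), and that of Slc5a3 also without female control replicate 6 (0.0544). Over all alternatives the adjusted p ran from 0.00362 to 0.0743 for Slc5a3 and from 0.000392 to 0.0822 for Hspa4l. Slc6a12 differed by 3.95 ± 0.81, as a description. In the same contrast 6 of 6 principal cell (list median 1.61), 2 of 3 thick limb and 2 of 5 intercalated cell markers were higher. Of 3 macrophage markers 1 was lower. The part of these markers in the differences between the sexes was not tested. For vAKI with Atp6v1b1Cre 0 of 5 passed (edgeR quasi-likelihood, 0 at an unadjusted p under 0.05, 0 by DESeq2, and 0% of all genes), and Slc6a12 differed by -2.68 ± 0.81, as a description, or by -1.63 without male vAKI replicate 1.

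For iAKI with Hoxb7Cre 1 of 6 passed, beside 10.5% of all genes. It was Slc6a12, with 2.23 ± 0.74 (adjusted p = 0.0471). Female iAKI libraries stood at 23.2, 34.5 and 52.9 CPM and female controls at 7.36 to 27.6. Male iAKI libraries stood at 11.5 to 19.4 CPM and male controls at 19.1 to 64.5. These controls belong to the fall that chose Slc6a12, so the test is not independent of that choice. Of the 15 fits without 1 library 11 ended this call, and its adjusted p ran from 0.0205 to 0.181. In the same contrast 5 of 6 principal cell (list median 2.04), 1 of 3 thick limb and 1 of 5 intercalated cell markers were higher. Of 3 macrophage markers 1 was lower. The part of these markers was not tested. For iAKI with Atp6v1b1Cre 0 of 6 passed (edgeR quasi-likelihood, 0 at an unadjusted p under 0.05, 0 by DESeq2, and 0% of all genes).

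Across libraries, Slc6a12 and Hspa4l ran together. Over the 43 pulldowns from 5.5-month mice their log2 CPM had a Pearson r of 0.87, over the 21 control pulldowns 0.66 and over the 22 male libraries 0.90. Gdpd5 ran against both, with r of -0.73 to Slc6a12 and -0.74 to Hspa4l over the 43 libraries, and -0.57 and -0.28 over the controls. Nfat5 correlated less with the members it is known to activate, with r of 0.39 to Slc5a3, 0.23 to Slc6a12, 0.15 to Slc6a6 and 0.45 to Hspa4l over the 43 libraries. Slc6a6 had r of -0.07 to Slc6a12 and -0.12 to Hspa4l. These values describe libraries that share groups, runs and depth, and they include the vAKI libraries that chose Slc6a12.

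**Figure D5:**
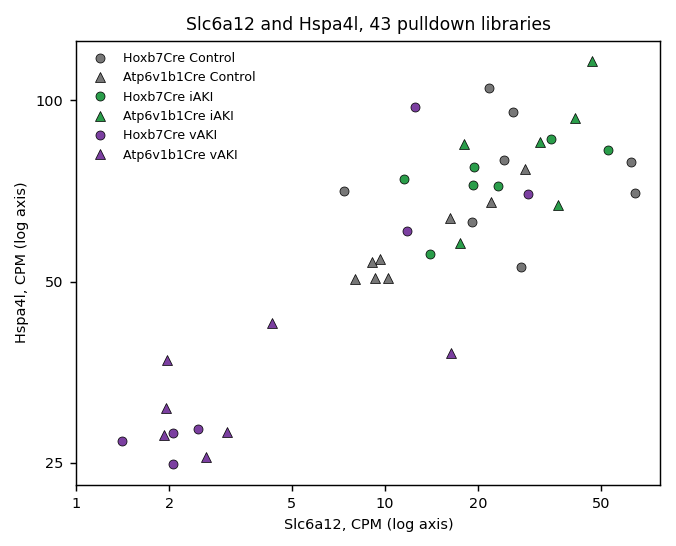
Slc6a12 against Hspa4l in CPM (log axes) in the 43 pulldowns from 5.5-month mice, with the symbol giving the driver and the colour the treatment. The vAKI libraries form the lower left, from 1.41 CPM of Slc6a12 and 24.8 CPM of Hspa4l upward, but for 3 Hoxb7Cre and 2 Atp6v1b1Cre vAKI libraries at higher Slc6a12.

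The genes most like each member over the same 43 libraries were named from 13935 genes with a mean of at least 1 CPM, by Pearson r of log2 CPM. They were Cab39l (0.94), Htr1b (0.93) and Fn3krp (0.93) for Slc6a12, and Zw10 (0.90) and Slc7a6 (0.89) for Hspa4l. They were Ankrd12 (0.80), Nipbl (0.76) and Zc3h11a (0.76) for Nfat5, and Synj2bp (0.79), Pgap1 (0.78) and Abi2 (0.75) for Slc5a3. They were Gramd1b (0.79), Slc3a1 (0.79) and Lrp4 (0.77) for Slc6a6, and Armc5 (0.83), Edc4 (0.83) and Tns2 (0.83) for Gdpd5.

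Other genes of the pathway moved in both directions in Hoxb7Cre males with vAKI, where 35.5% of all genes passed. Of 16 genes that act on NFAT5, 4 were higher and 4 lower, and those of lowest adjusted p were Map2k3, an activator of the p38 kinase, with 1.37 ± 0.19 (7.56e-06), the kinase gene Fyn with 1.41 (1.1e-05) and Mapk14, which encodes p38 itself, with 0.91 (5e-05). Of 10 cell volume genes 3 were higher and 3 lower. Lrrc8a, the essential subunit of the volume-regulated anion channel, through which swollen cells release osmolytes, rose by 1.11 (4.01e-06), Lrrc8c, another subunit, by 3.20 ± 0.27 (3.71e-08), and Wnk4, a chloride-sensitive kinase, had -1.14 (9.82e-05). Of 7 other targets of NFAT5, Sgk1, a kinase that activates sodium transport, rose by 1.93 ± 0.30 (3.64e-05), and Aqp2 and Hspa1b, a heat shock protein, were lower.

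Genes that handle the osmolytes themselves are read against the same 35.5% of all genes. Of 8 betaine genes 3 were lower, Slc6a20b with -1.32, Chdh, which makes betaine from choline, with -0.95, and Sardh with -0.87. Of 4 other glycerophosphocholine genes 2 were higher, Gde1 (0.82) and Gpcpd1 (0.88), and Pnpla6, which makes glycerophosphocholine from phospholipid, was lower (-1.38). Of 6 myo-inositol genes 2 were lower, Impa1 (-0.93) and Impa2 (-0.56), both phosphatases that release myo-inositol. The 4 taurine genes, from Csad (-0.37, adjusted p = 0.193) to Slc6a13 (0.32, 0.407), did not pass, nor did Sord, which oxidizes sorbitol (-0.33).

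In Atp6v1b1Cre males with vAKI 4 of 8 betaine genes were lower, and so were 2 of 4 taurine genes, Csad (-1.15) and Cdo1 (-0.61), which take part in taurine synthesis, beside 14.6% of all genes. Impa1 (-0.79) and Sord (-1.07) were lower too. Of 7 other targets 3 were higher, Sgk1 (2.06), Slc14a2 (2.15 ± 0.49, adjusted p = 0.00555), the urea transporter of the inner medulla, and Aqp2 (0.43). Of 10 cell volume genes 3 were higher, Lrrc8c (1.55) among them, and 2 lower, Wnk4 (-1.19) and Lrrc8d (-0.42). In Atp6v1b1Cre females with vAKI Slc14a2 (1.13) and Sgk1 (1.56) passed again, beside 18% of all genes.

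In iAKI of Hoxb7Cre males single genes of the lists passed, Lrrc8c higher (0.95) and Bhmt (-1.74), Isyna1 (-0.70) and Gde1 (-0.52) lower, besides Aqp2 and Hspa1b, where 6.13% of all genes passed. In iAKI of Atp6v1b1Cre males, where 8.51% of all genes passed, 3 of 8 betaine genes were lower, Bhmt2 with -1.10 (adjusted p = 0.0238), Sardh with -0.90 (0.0362) and Slc6a20b with -1.06 (0.0451). Also 2 of 4 taurine genes were lower beside Slc6a6, Slc6a13, a second taurine and GABA transporter, by -1.12 ± 0.28 (0.0176) and Csad by -0.73 (0.0356). Of 6 myo-inositol genes Miox, the proximal enzyme that degrades myo-inositol, was lower (-1.76) and Impa2 higher (0.86).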

How the data were processed

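Kidney pulldown RNA (48 libraries) and total RNA (21) of mice was sequenced from poly(A)-selected TruSeq libraries. The deposited table holds raw read counts per gene, which the authors made with CASAVA 1.8.2, Trimmomatic 0.36, STAR 2.5.3a on mm10 and HTSeq 0.6.1p2 (per the submitters' processing notes). The gene annotation used there is not given in the sources used here. Every column was mapped to a sample by name.

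Counts were tested with edgeR 4.0.16 (quasi-likelihood F test, TMM scaling, limma 3.58.1, R 4.3.3) on genes with at least 2 counts over 69 libraries, with Benjamini-Hochberg adjustment over all 21175 genes and a threshold of 0.05. Separate fits covered 22 male and 21 female pulldowns of 5.5 months, 42 control libraries (sex as a covariate), and all 43 pulldowns of 5.5 months for differences between the sexes. log2 CPM used a prior count of 2. The procedure was tested on simulated counts. Alternatives were DESeq2 1.42.0, its size factors, filterByExpr, no filter, a fold change limit, 3-month controls, both sexes together, the replicate number as a block, the run of library numbers, the compared groups alone, and each library left out, and, chosen after seeing the data, males with library numbers up to 40 only and leaving out each library for the sex differences. The members and the gene lists were chosen with earlier results of these data known. Of the other lists, at most 3 genes of lowest adjusted p are named, plus those that touch a member's result, and for each member the 3 genes of highest correlation, of which 1 is not reported here. Positions came from GENCODE M21, upstream sequences from RefSeq (GRCm38.p6).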

Additional observations from a re-analysis of the deposited data

Results flagged for a closer look

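Among 66 groups of members' levels with 4 or more libraries, 3 held a library whose gap to its neighbours exceeded Dixon's critical value, and chance alone gives about 1 in 20. These were Gdpd5 in male Hoxb7Cre control replicate 5 (5.62 CPM, against 4.70 to 4.85 in the other 3), Slc6a12 in male Atp6v1b1Cre vAKI replicate 1 (16.4 CPM, against 1.92 to 4.31) and Slc6a12 in total RNA of male Atp6v1b1Cre control replicate 10 (9.49 CPM, against 7.31 to 7.51).

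Responses that differed between groups by a test of the difference itself were those of Slc6a12 to iAKI between drivers in males (log2 difference 3.04, Atp6v1b1Cre minus Hoxb7Cre), Slc6a6 to iAKI between drivers (-1.02) and Hspa4l to vAKI between drivers (0.85). Between the sexes with Hoxb7Cre, female minus male, they were Slc5a3 (1.18) and Hspa4l (1.098) for vAKI and Slc6a12 (2.23) for iAKI. Of these, the Slc6a12 difference between drivers was the only one that passed in every fit with 1 library left out. It did not pass (edgeR quasi-likelihood) with both sexes in the fit (1.70, adjusted p = 0.206) or with the replicate block (2.00, 0.282). It also uses control libraries of the fall that chose Slc6a12, so it is not independent of that choice. Principal cell markers were called higher in each of the contrasts named here. Between drivers they were 5 of 6 for iAKI and 3 of 6 for vAKI. Between the sexes with Hoxb7Cre they were 6 of 6 for vAKI and 5 of 6 for iAKI. Their part in these differences was not tested.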

How the results depend on the processing

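Numbers of called members are given as the reported value followed by the alternative. Requiring a log2 fold change of at least 1 changed them from 3 to 1 (Hoxb7Cre vAKI males), 1 to 0 (Atp6v1b1Cre vAKI males), 1 to 0 (vAKI between drivers), 3 to 1 and 2 to 1 (vAKI against iAKI, Hoxb7Cre and Atp6v1b1Cre), 6 to 3 and 4 to 2 (pulldown against total) and 2 to 1 (between pulldowns). With no filter the iAKI difference between drivers went from 2 to 1 and the Hoxb7Cre iAKI sex difference from 1 to 0. Female Atp6v1b1Cre iAKI went from 0 to 1 by DESeq2 and by filterByExpr. Adding the 3 males of 3 months moved the iAKI difference from 2 to 1. Both sexes together gave 1 (Hoxb7Cre vAKI), 1 (Atp6v1b1Cre iAKI), 1 and 0 (driver differences in iAKI and vAKI) and 4 (Atp6v1b1Cre vAKI against iAKI). Females alone gave 0 between pulldowns. The run of library numbers gave 2, and the 2 groups alone 1, for Hoxb7Cre iAKI. Library numbers 1 to 40 gave 1 (Hoxb7Cre iAKI), 0 (Atp6v1b1Cre vAKI) and 4 (Atp6v1b1Cre vAKI against iAKI).

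Replicate numbers did not pair the male libraries: deviations of same-numbered libraries correlated at -0.21 (2 pairs of Hoxb7Cre iAKI and control), -0.10 (1 pair, vAKI and control), -0.03 (3 pairs, iAKI and vAKI), -0.44 and 0.22 (1 pair each of Atp6v1b1Cre). The replicate block left 7 instead of 16 residual degrees of freedom and gave 0 called members for Atp6v1b1Cre iAKI, 2 for Atp6v1b1Cre vAKI, and 0 and 0 for the driver differences, and left 2 of 3 for Hoxb7Cre vAKI. With the block Slc6a6 (-1.83, adjusted p = 0.0724) and Slc6a12 (1.22, 0.4661) in Atp6v1b1Cre iAKI, Gdpd5 in Hoxb7Cre vAKI (0.58, 0.158), Slc6a12 (2.00, 0.282) and Slc6a6 (-1.79, 0.086) in the iAKI driver difference and Hspa4l in the vAKI driver difference (0.44, 0.649) did not pass, and Slc6a6 in Atp6v1b1Cre vAKI did (-1.10, 0.0456). Of the values that were not called, the block turned Hspa4l in Hoxb7Cre iAKI to 0.057 and Gdpd5 in the iAKI driver difference to 0.10.

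Leaving out 1 library gave 0 to 1 (Hoxb7Cre iAKI), 2 to 4 (Hoxb7Cre vAKI), 1 to 3 (Atp6v1b1Cre iAKI), 1 to 1 (Atp6v1b1Cre vAKI), 1 to 2 and 0 to 1 (driver differences), 2 to 4 and 1 to 3 (vAKI against iAKI) called members in males, 0 to 0, 0 to 0, 0 to 1 and 0 to 1 in females in the same order of drivers and treatments, 0 to 3 (vAKI) and 0 to 1 (iAKI) for the Hoxb7Cre sex differences, and 0 to 0 for those of Atp6v1b1Cre.

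The number of all genes called, against which the members were read, moved by over 1.5 times in some alternatives of most comparisons. Without the fold change limit its range was 625 to 3078 (reported 1298, Hoxb7Cre iAKI), 2704 to 8904 (7521, Hoxb7Cre vAKI), 0 to 3991 (1803, Atp6v1b1Cre iAKI), 1311 to 6409 (3086, Atp6v1b1Cre vAKI), 0 to 3231 (1649) and 53 to 3103 (890) for the iAKI and vAKI driver differences, and 4178 to 9407 (6194, Atp6v1b1Cre vAKI against iAKI) in males. It was 7 to 2958 (665), 1 to 114 (23), 36 to 1822 (563) and 1586 to 4752 (3815) in females in the same order of drivers and treatments, 748 to 2399 (2103) between pulldowns, and 1646 to 5929 (3387), 162 to 3904 (2231), 0 to 45 (0) and 0 to 1 (0) for the sex differences in Hoxb7Cre vAKI and iAKI and Atp6v1b1Cre vAKI and iAKI.

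Direction turned for values that were not called, with 2 exceptions, Slc5a3 in Hoxb7Cre vAKI (0.030 with both sexes) and Hspa4l in the vAKI driver difference (-0.0066 with both sexes). Against total RNA with Atp6v1b1Cre, Slc6a12 turned to -0.0056 (filterByExpr), -0.025 (no filter) and -0.18 (males), and Hspa4l to 0.15 (females) and 0.0079 (5.5 months). Slc6a6 in the vAKI driver difference turned to 0.067 with 3-month controls. Both sexes gave Slc5a3 0.14 and Slc6a6 0.016 in Hoxb7Cre iAKI, Nfat5 -0.015 in Atp6v1b1Cre vAKI and Slc5a3 -0.14 in the vAKI driver difference, and numbers 1 to 40 gave Slc6a12 0.13 in Atp6v1b1Cre vAKI. With 1 library left out the ranges that crossed 0 were, in males, Hspa4l -0.13 to 0.046 and Slc6a6 -0.24 to 0.013 (Hoxb7Cre iAKI), Slc6a6 -0.20 to 0.056 (Hoxb7Cre vAKI against iAKI), Gdpd5 -0.32 to 0.16 (iAKI driver difference), Slc6a6 -0.31 to 0.016 (vAKI driver difference) and Nfat5 -0.036 to 0.12 (Atp6v1b1Cre vAKI). In females they were Hspa4l -0.16 to 0.14 and Nfat5 -0.13 to 0.029 (Hoxb7Cre iAKI), Gdpd5 -0.23 to 0.26 (Hoxb7Cre vAKI), Nfat5 -0.14 to 0.084 (Atp6v1b1Cre iAKI), and Nfat5 -0.20 to 0.043, Slc5a3 -0.20 to 0.070 and Slc6a6 -0.26 to 0.13 (Atp6v1b1Cre vAKI). For the sex differences they were Hspa4l -0.13 to 0.18 and Gdpd5 -0.21 to 0.047 (Hoxb7Cre iAKI), Nfat5 -0.17 to 0.19 and Slc6a6 -0.13 to 0.18 (Hoxb7Cre vAKI), Gdpd5 -0.32 to 0.17 (Atp6v1b1Cre iAKI), and Nfat5 -0.23 to 0.025, Slc5a3 -0.061 to 0.24 and Gdpd5 -0.051 to 0.32 (Atp6v1b1Cre vAKI). The cause of these changes was not tested. Groups of 3 or 4 libraries and the spread of Slc6a12 between control libraries limit what could be called, and Akr1b3 could not be measured from these counts.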
